A study of Mus musculus with 8 samples.

Results

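The genes described are 36 that encode proteins of the non-collagen extracellular matrix, the enzymes that cross-link and cut it, and markers of the fibroblasts that make it. They were taken by symbol from a list of names, and all 36 were found among the 23336 genes of a table of read counts. The counts come from total RNA of newborn skeletal muscle, taken from 4 wild-type mice and 4 mice that carry a deletion named ΔDMR1-U2 at Igf2. All animals were recorded as C57BL/6 females at postnatal day 2. The sources used here do not say from which parent the deletion was inherited, which base pairs it removes or which muscles were taken. The series is about transcripts of Igf2as, which runs antisense to Igf2, and the comparison asks how muscle RNA differs between the genotypes.

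In muscle, connective-tissue fibroblasts lie between the fibres and secrete most of the matrix. Fibrillins polymerise outside the cell into microfibrils, on which elastin is deposited with the help of fibulins and then cross-linked by lysyl oxidases. Small leucine-rich proteoglycans such as decorin bind collagen fibrils and set their width, matricellular proteins such as thrombospondins and periostin signal to cells more than they bear load, and metalloproteinases and their tissue inhibitors govern turnover. In newborn muscle this matrix is being laid down while fibres grow.

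The libraries held 16084413 to 26913636 counts, and levels are given in CPM, counts rescaled to a common library size. Igf2as, at the targeted locus, had 100 to 122 counts in the ΔDMR1-U2 libraries and 1113 to 1868 in the wild-type ones, so each library carried the level of its labelled group. Some libraries stood apart. Xist, which is transcribed from the inactive X of female cells, was at 2.50 CPM in ΔDMR1-U2 library 1A and at 1270 CPM or more in each other library, so that library goes against its label as female. ΔDMR1-U2 library 1B lay at the end of the first principal component (38.0% of the variance), with a score of -41.7 against -16.9 or higher elsewhere. The 11 cartilage and bone markers summed to only 59.1 CPM in ΔDMR1-U2 library 3 and to 71.6 CPM in wild-type library 1A, against 405 to 1399 CPM in the other 6. Muscle fibre markers summed to 167232 to 188930 CPM in the ΔDMR1-U2 libraries and 182451 to 216062 CPM in the wild-type ones. All 8 had negative log2 fold changes (median -0.17), 0 were called by edgeR and 1 by DESeq2, 2 had an unadjusted p under 0.05, and their part in the members' values was not tested. Of the fibroblast markers, 14 of 15 were expressed highly enough to test. What the letters in library names 1A and 1B stand for is not given, so whether those animals share a litter is unknown.

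Differences between the genotypes were small over most of the 36 genes. Only Mfap2 fell in ΔDMR1-U2 muscle (1 of 36), 0 rose and 35 were not called, where a call is an adjusted p under 0.05 over all 15241 genes tested (Benjamini-Hochberg adjustment of the edgeR quasi-likelihood test). Among all genes tested, 1.13% were called, 0.617% in the lower and 0.512% in the higher direction. All 36 passed the filter on low counts. At an unadjusted p under 0.05, 2 of the 36 were higher and 5 lower, 19.4% of them, against 21.3% of all genes tested (10.4% higher and 10.9% lower), so the share is near the background. The lowest library of one group lay above the highest of the other for 5 of the 36, 2 higher and 3 lower, against 12.8% of all genes tested (6.4% higher and 6.38% lower). The log2 fold change of ΔDMR1-U2 over wild-type, the measure used throughout, had a median of -0.04 over the 36 and of -0.00 over all genes, and the median size without sign was 0.14 in both. It was below 0 for 20 of the 36 and for 50.2% of all genes. It lay within 0.25 of 0 for 28 of the 36, from -0.55 for Mfap4 to 0.41 for Pdgfra, with standard errors from 0.06 to 0.27. Leaving out 1 library moved this value by over 1.5 times, or past 0, in at least 1 of 8 fits for 29 of the 36, and in none of them for Mfap2, Mfap4, Efemp2, Tnc, Vim, Mmp14 and Timp3. In the authors' deposited table the sign was the same for all 36, and 1 of them, Mfap4, had an adjusted p under 0.05, against 0.887% of the genes with one in that table. DESeq2 called 3 of the 36, all lower (Mfap2, Mfap4 and Tnc), against 6.15% of the genes it tested.

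**Figure D1:**
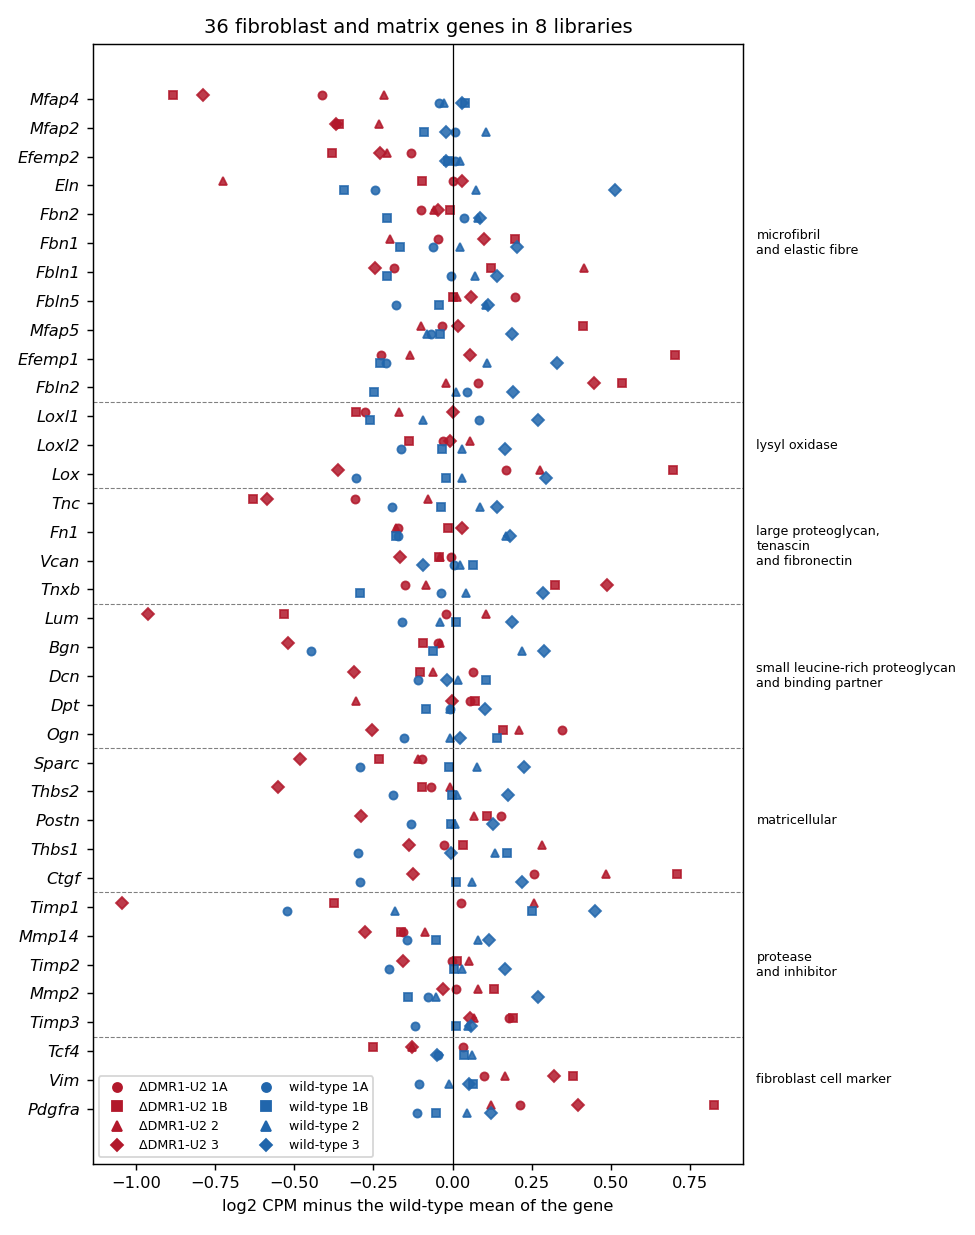
Log2 CPM of the 36 genes (vertical axis, grouped by role) in each of the 8 libraries, as the difference from the gene's wild-type mean (horizontal axis), with 1 point per library, colour for genotype and shape for library. Wild-type library 3 was the highest of its group in 27 genes, and ΔDMR1-U2 library 3 and wild-type library 1A share low values in 14.

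The 11 members that build microfibrils and elastic fibres include the 3 genes with the smallest p, all of them lower. Mfap2 encodes MAGP1, a small glycoprotein that decorates fibrillin microfibrils. In wild-type libraries 1A, 1B, 2 and 3 it was at 48.1, 45.0, 51.5 and 47.3 CPM, and in ΔDMR1-U2 libraries of the same names at 37.1, 37.3, 40.8 and 37.1 CPM. All 4 ΔDMR1-U2 libraries lay below all 4 wild-type ones. The means were 38.1 ± 1.82 against 48.0 ± 2.72 CPM (SD, n = 4 each), a log2 fold change of -0.33 (standard error 0.07, edgeR adjusted p = 0.0481). The call sat at the threshold. It was lost in 7 of the 8 fits that each left out 1 library (all but that without ΔDMR1-U2 library 2), where the adjusted p reached 0.149 while the log2 fold change stayed between -0.37 and -0.29, and without libraries 1A and 1B of the ΔDMR1-U2 group it was -0.30 (edgeR adjusted p = 0.183). It was also lost without ΔDMR1-U2 library 3 and wild-type library 1A together (edgeR adjusted p = 0.261). In the mm10 build the gene spans 141010418 to 141015984 of chromosome 4, plus strand.

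Mfap4, a fibrinogen-related protein that binds elastin and fibrillin-1, had the largest difference of the 36. It was at 118, 125, 119.7 and 125 CPM in wild-type libraries 1A, 1B, 2 and 3, and at 91.6, 66.2, 105 and 70.6 CPM in the ΔDMR1-U2 ones. Wild-type libraries were tightly placed and ΔDMR1-U2 libraries spread wide below them, with means of 122 ± 3.41 and 83.4 ± 18.2 CPM. Its log2 fold change of -0.55 (standard error 0.13) missed the threshold (edgeR adjusted p = 0.0608) and passed it in DESeq2 (adjusted p = 0.00265), while the authors' deposited table gives an adjusted p of 0.00574. In edgeR it passed without ΔDMR1-U2 library 2 (adjusted p = 0.0198) and missed in the other 7 fits that left out 1 library (up to 0.167), without ΔDMR1-U2 libraries 1A and 1B (0.169), and without ΔDMR1-U2 library 3 and wild-type library 1A (0.268). Its position is 61485431 to 61488900 of chromosome 11, plus strand. Its exons overlap those of Mapk7 on the opposite strand, and the sources used here do not say whether counting used the strand. Mapk7 was at 17.8 ± 1.65 CPM in ΔDMR1-U2 muscle and 19.5 ± 1.49 CPM in wild-type.

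Efemp2, or fibulin-4, which brings lysyl oxidase to elastin, came next by p. Its levels were 35.8, 35.2, 36.2 and 35 CPM in wild-type libraries 1A, 1B, 2 and 3, and 32.4, 27.3, 30.8 and 30.3 CPM in the ΔDMR1-U2 ones. The groups did not overlap, and the log2 fold change was -0.23 (standard error 0.07, edgeR adjusted p = 0.112). It overlaps Mus81 on the other strand, whose log2 fold change was -0.03. Fbln2, or fibulin-2, pointed the other way, at 181, 248, 169 and 233 CPM in ΔDMR1-U2 muscle and 177, 144, 173 and 196 CPM in wild-type libraries 1A, 1B, 2 and 3. These groups overlapped, and its log2 fold change was 0.27 (edgeR adjusted p = 0.26).

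**Figure D2:**
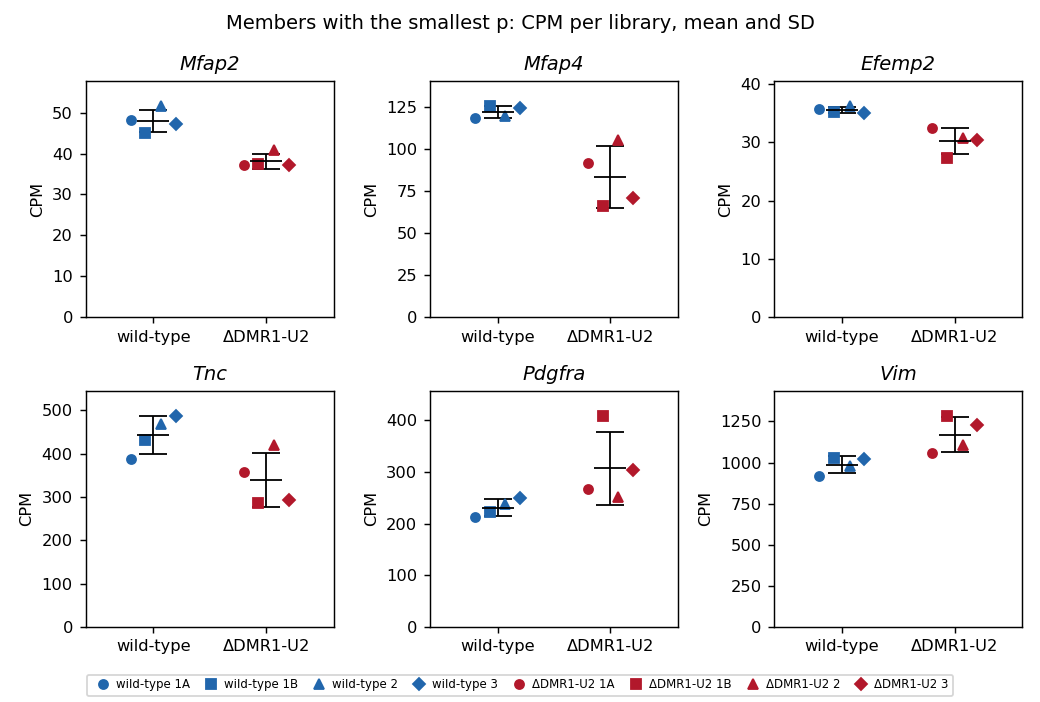
CPM of the 6 members with the smallest p in each of the 8 libraries, on linear axes from 0, with points for libraries and bars for the group mean and SD (n = 4 each). Mfap2, Mfap4 and Efemp2 are lower in every ΔDMR1-U2 library than in any wild-type one, Tnc overlaps, and Pdgfra and Vim are higher without passing the threshold.

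The fibrillins form the scaffold, and their log2 fold changes were 0.01 for Fbn1 and -0.06 for Fbn2. Fbn1 was at 1388 ± 164 CPM in ΔDMR1-U2 muscle and 1375 ± 151 CPM in wild-type, and Fbn2, the fibrillin typical of developing tissue, at 695 ± 17.8 against 724 ± 67.0 CPM. Per kilobase of joined exons, Fbn1 was 2.17 ± 0.221 times the level of Fbn2 in ΔDMR1-U2 muscle and 2.07 ± 0.140 times in wild-type. Relative to Fbn1 per kilobase, Mfap2 stood at 0.279 ± 0.0460 in ΔDMR1-U2 muscle and 0.352 ± 0.0346 in wild-type, and Mfap4 at 0.391 ± 0.132 and 0.565 ± 0.0627. Both ratios overlapped between the groups, with ΔDMR1-U2 library 2 (0.343 and 0.556) above wild-type library 3 (0.300 and 0.499). The same ratio for Mfap5, the second MAGP protein, was 0.202 ± 0.0176 and 0.193 ± 0.0128. Eln, the elastin gene, ranged from 206 CPM in ΔDMR1-U2 library 2 to 486 CPM in wild-type library 3, and its log2 fold change of -0.21 (standard error 0.20) became -0.0077 without wild-type library 3 and -0.06 without ΔDMR1-U2 library 2. The fibulins Fbln1 and Fbln5 were at 58.7 ± 12.8 and 80.5 ± 5.18 CPM in ΔDMR1-U2 muscle, against 56.9 ± 5.75 and 77.0 ± 7.27 CPM. Their log2 fold changes were 0.04 and 0.06, those of Efemp1 (fibulin-3) and Mfap5 were 0.13 and 0.08, and none was called. Over the 11 members of this role edgeR called 1 and DESeq2 called 2, all lower, and the median log2 fold change was 0.01. At an unadjusted p under 0.05, 3 were lower and 0 higher, 27.3% of them against 21.3% of all genes tested.

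The promoter windows below are those of 3 members whose libraries did not overlap between genotypes, Mfap2 and Efemp2 (lower) and Pdgfra (higher). They are RefSeq sequences of GRCm38.p6, the assembly of mm10, on the plus strand, from up to 250 bases before an annotated transcript start and ending where exon sequence of any transcript begins. Capitals mark matches to motifs searched on both strands, which were the TATA box (TATAAA), AP-1 (TGANTCA), TEAD (GGAATG), SMAD (CAGACA), the SP1 GC box (GGGCGG) and the CArG box. In the Mfap2 window they mark the SMAD letters on the minus strand and the TEAD letters, and in that of Efemp2 the GC box once on each strand. The Pdgfra window holds none of the 6. Mfap2 and Efemp2 have further windows that are not shown. Of the other members whose libraries did not overlap, Mfap4 had no RefSeq window, and that of Vim lay wholly in annotated exon sequence.
Mfap2 chr4:141010174-141010417: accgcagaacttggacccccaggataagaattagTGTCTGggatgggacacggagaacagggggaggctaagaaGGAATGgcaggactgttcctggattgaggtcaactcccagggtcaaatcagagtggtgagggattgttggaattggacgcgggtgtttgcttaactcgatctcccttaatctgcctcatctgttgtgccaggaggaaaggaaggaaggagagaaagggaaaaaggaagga
Efemp2 chr19:5473696-5473945: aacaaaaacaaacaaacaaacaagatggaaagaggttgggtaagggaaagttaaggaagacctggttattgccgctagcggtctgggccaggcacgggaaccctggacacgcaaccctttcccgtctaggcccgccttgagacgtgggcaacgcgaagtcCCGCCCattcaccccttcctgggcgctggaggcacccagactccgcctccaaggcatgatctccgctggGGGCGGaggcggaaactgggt
Pdgfra chr5:75152001-75152250: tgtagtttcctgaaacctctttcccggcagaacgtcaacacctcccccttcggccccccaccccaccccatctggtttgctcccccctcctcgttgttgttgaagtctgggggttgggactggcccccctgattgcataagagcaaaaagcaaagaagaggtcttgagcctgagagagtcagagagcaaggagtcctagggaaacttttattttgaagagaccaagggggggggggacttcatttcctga
RefSeq windows were given for 22 of the 36 genes, 29 windows in all. The GC box was in 17 of the 29 and in 32.7% of all 32851 windows, the SMAD letters in 7 against 17.1%, the TATA box in 6 against 12.4%, the TEAD letters in 3 against 12.6%, AP-1 in 2 against 6.75%, and the CArG box in 0 against 1.47%. Windows of 1 gene can overlap. A match is a run of letters, and no binding was measured here.

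Lysyl oxidases, with 3 members, are copper enzymes that cross-link collagen and elastin. Lox was at 282 ± 82.4 CPM in ΔDMR1-U2 muscle and 241 ± 40.8 CPM in wild-type, and its log2 fold change of 0.23 became 0.04 without ΔDMR1-U2 library 1B. Loxl1, which acts on elastin, was at 72.7 ± 7.11 against 83.2 ± 13.2 CPM, and Loxl2 at 166 ± 9.20 against 170.1 ± 16.0 CPM. Their log2 fold changes were -0.19 and -0.03, and that of Loxl1 became -0.10 without wild-type library 3. None of the 3 was called by edgeR or DESeq2, or had an unadjusted p under 0.05.

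Large proteoglycans and adhesive glycoproteins have 4 members. Tnc, or tenascin-C, an early matrix protein of tendon, muscle ends and healing tissue, was at 387, 430.5, 468 and 487 CPM in wild-type libraries 1A, 1B, 2 and 3 and at 357, 285, 419 and 294 CPM in the ΔDMR1-U2 ones. ΔDMR1-U2 library 2 lay above wild-type library 1A, so the groups overlapped. The means were 339 ± 62.2 and 443 ± 44.3 CPM and the log2 fold change was -0.39 (standard error 0.12, edgeR adjusted p = 0.12), which passed in DESeq2 (adjusted p = 0.0402). Tendon markers stand beside it. All 7 of them had negative log2 fold changes, 0 were called by edgeR or DESeq2 or had an unadjusted p under 0.05, none was at 0 throughout, and they summed to 217 to 573 CPM in ΔDMR1-U2 muscle and 433 to 643 CPM in wild-type. In ΔDMR1-U2 libraries 1A, 1B, 2 and 3 the tendon marker sums were 516, 404, 573 and 217 CPM. Leaving out 1 library kept the log2 fold change of Tnc between -0.51 and -0.31. The part of the tendon markers in the Tnc values was not tested. Tnxb, or tenascin-X, which stabilises collagen networks, was at 735 ± 158 CPM in ΔDMR1-U2 muscle and 659.6 ± 109 CPM in wild-type. Fn1, or fibronectin, which cells grip through integrins, was at 1464 ± 109 against 1559.9 ± 218 CPM, and Vcan, or versican, a large hyaluronan-binding proteoglycan, at 1208 ± 58.2 against 1262 ± 57.7 CPM. Their log2 fold changes were 0.16, -0.09 and -0.06. That of Tnxb became 0.04 without ΔDMR1-U2 library 3, and that of Fn1 became -0.03 without wild-type library 2 or 3. Of this role's 4 members edgeR called 0, DESeq2 called 1 (Tnc), and 1 (Tnc) had an unadjusted p under 0.05.

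Small leucine-rich proteoglycans coat collagen fibrils, and dermatopontin (Dpt), which binds decorin, was grouped with them. Dcn, Lum, Bgn and Dpt had log2 fold changes of -0.10, -0.30, -0.19 and -0.04, Ogn had 0.13, and 0 of the 5 were called by edgeR or DESeq2 or had an unadjusted p under 0.05. Dcn, or decorin, was at 479.7 ± 50.8 CPM in ΔDMR1-U2 muscle against 513 ± 31.5 CPM, Ogn, or osteoglycin, at 355 ± 59.4 against 325 ± 27.0 CPM, and Dpt at 116 ± 13.4 against 119 ± 6.42 CPM. Without ΔDMR1-U2 library 3 the values were -0.03 for Dcn, -0.08 for Bgn and 0.24 for Ogn. Lum, or lumican, was at 128, 90.0, 140.1 and 66.8 CPM in the ΔDMR1-U2 libraries (1A, 1B, 2 and 3) and at 116, 131, 127 and 148 CPM in wild-type. Of its ΔDMR1-U2 libraries 2 lay inside the wild-type range and 2 below it, and the value of -0.30 became -0.13 without ΔDMR1-U2 library 3, -0.46 without ΔDMR1-U2 library 2, and -0.18 without ΔDMR1-U2 library 3 and wild-type library 1A. Bgn, or biglycan, was at 311, 301, 313 and 224 CPM in ΔDMR1-U2 muscle and at 236, 308, 375 and 393 CPM in wild-type, so its lowest library in each group was again one of those 2.

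Of the 5 matricellular members, 0 were called by edgeR or DESeq2 or had an unadjusted p under 0.05. Ctgf, now named Ccn2, a secreted factor and a common readout of TGF-β and YAP activity, was at 55.3, 75.7, 64.7 and 42.4 CPM in ΔDMR1-U2 muscle and at 37.7, 46.5, 48.3 and 53.8 CPM in wild-type libraries 1A, 1B, 2 and 3. All ΔDMR1-U2 libraries but library 3 lay above every wild-type one, for a log2 fold change of 0.35 (standard error 0.16, edgeR adjusted p = 0.24), which was 0.21 without ΔDMR1-U2 library 1B. Sparc, or osteonectin, which binds collagen and mineral, was at 1498, 1365, 1485 and 1147 CPM in ΔDMR1-U2 muscle and at 1309, 1589, 1691 and 1872 CPM in wild-type. Its groups overlapped through wild-type library 1A, and the log2 fold change was -0.23 (standard error 0.12, edgeR adjusted p = 0.283). Postn, or periostin, was at 3687, 3571, 3474 and 2713 CPM in ΔDMR1-U2 muscle and at 3026, 3303, 3328 and 3618 CPM in wild-type, with a log2 fold change of 0.02. It alone took 17.5% to 21.9% of the counts of the 36 genes. The thrombospondins, which bind growth factors and cell receptors, were at 239 ± 30.3 (Thbs1) and 474 ± 75.3 CPM (Thbs2) in ΔDMR1-U2 muscle, against 233 ± 32.7 and 534 ± 54.4 CPM. Their log2 fold changes were 0.03 and -0.17, and that of Thbs2 became -0.06 without ΔDMR1-U2 library 3.

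Proteases and their inhibitors have 5 members, of which 0 were called by edgeR or DESeq2 and 1, Mmp14, had an unadjusted p under 0.05. Mmp14, a membrane-bound collagenase that also activates the product of Mmp2, was at 142, 141, 148 and 130.1 CPM in ΔDMR1-U2 muscle and at 143, 152, 167 and 171 CPM in wild-type libraries 1A, 1B, 2 and 3. The groups overlapped only at ΔDMR1-U2 library 2, and the log2 fold change was -0.17 (standard error 0.07, edgeR adjusted p = 0.207). Mmp2, or gelatinase A, was at 231 ± 11.5 CPM in ΔDMR1-U2 muscle and 225 ± 30.3 CPM in wild-type, a log2 fold change of 0.04. Of the inhibitors, Timp2 was at 176 ± 10.9 against 179 ± 18.5 CPM and Timp3, which binds to the matrix, at 149 ± 7.42 against 136 ± 7.52 CPM. Their log2 fold changes were -0.03 and 0.12, and Timp1 had -0.27 with the largest standard error of the 36 (0.27), which became -0.07 without ΔDMR1-U2 library 3 and -0.47 without ΔDMR1-U2 library 2. Timp1 rested on 70 to 233 counts a library, at 7.36, 5.55, 8.65 and 3.45 CPM in ΔDMR1-U2 muscle and 5.0, 8.61, 6.36 and 9.89 CPM in wild-type. Timp3 overlaps the neuronal gene Syn3 on the opposite strand, whose log2 fold change was 0.46 (edgeR adjusted p = 0.119).

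Of the 3 fibroblast markers, 2 had higher values in ΔDMR1-U2 without passing the threshold in edgeR or DESeq2. Pdgfra, the receptor that marks fibro-adipogenic progenitors of muscle, was at 267, 409, 251 and 304 CPM in ΔDMR1-U2 muscle and at 213, 222, 238 and 251 CPM in wild-type libraries 1A, 1B, 2 and 3. The groups touched at ΔDMR1-U2 library 2 and wild-type library 3 without overlapping. The log2 fold change of 0.41 (standard error 0.13, edgeR adjusted p = 0.128) became 0.25 without ΔDMR1-U2 library 1B, the highest. The adjusted p of Pdgfra was 0.0505 in DESeq2 and 0.498 in the authors' deposited table. All 7 tested adipocyte markers had positive log2 fold changes (median 0.72), with 0 called by edgeR or DESeq2 and 1 at an unadjusted p under 0.05, and summed to 930 to 1275 CPM in ΔDMR1-U2 muscle and 848 to 1025 CPM in wild-type, none at 0 throughout. Relative to the wild-type mean, their median log2 level was 1.42 in ΔDMR1-U2 library 1B and 0.52 or less in each other library. That library also stood apart in the 5 tested epidermis markers, which summed to 36.5 CPM there and to 13.6 to 20.5 CPM elsewhere. The part of either in the Pdgfra values was not tested. Vim, or vimentin, the intermediate filament of mesenchymal cells, was at 1057, 1283, 1106 and 1232 CPM in ΔDMR1-U2 muscle and at 917, 1030.2, 979 and 1022 CPM in wild-type. These groups did not overlap, and its log2 fold change was 0.24 (standard error 0.08, edgeR adjusted p = 0.133). For Vim the adjusted p was 0.0523 in DESeq2 and 0.561 in the authors' deposited table. Vim is also made by endothelial, Schwann and immature muscle cells. Of 10 endothelial markers 8 had positive log2 fold changes (median 0.11), 3 of all 10 were higher and 1 lower at an unadjusted p under 0.05, edgeR called 0 and DESeq2 1, lower, and they summed to 702 to 792 CPM in ΔDMR1-U2 muscle and 689 to 767 CPM in wild-type. Of 6 satellite cell and myoblast markers 2 were positive (median -0.07), 0 were called by edgeR or DESeq2 or had an unadjusted p under 0.05, and they summed to 318 to 368 CPM and 312 to 412 CPM. All 8 Schwann cell and nerve markers had positive log2 fold changes, 6 at an unadjusted p under 0.05, 0 called by edgeR and 3 by DESeq2, and summed to 331 to 424 CPM in ΔDMR1-U2 muscle and 229 to 318 CPM in wild-type, with none at 0. Of 10 macrophage markers 3 were positive (median -0.08), with 2 lower at an unadjusted p under 0.05 and 0 called by edgeR or DESeq2. Of 10 smooth muscle and pericyte markers 5 were positive (median -0.01), with 2 lower at an unadjusted p under 0.05. EdgeR called 0 of these and DESeq2 1, lower. The part of these cell types in the Vim values was not tested. In bulk muscle, a change in the number of cells of a type and a change in RNA per cell cannot be told apart.

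The remaining marker, Tcf4, was at 265 ± 21.8 CPM in ΔDMR1-U2 muscle and 287 ± 11.4 CPM in wild-type, a log2 fold change of -0.12 (edgeR adjusted p = 0.373). By symbol this is the basic helix-loop-helix factor also called E2-2, whereas the muscle fibroblast protein that the literature calls Tcf4 is encoded by Tcf7l2. Tcf7l2 was at 33.5 ± 7.46 CPM in ΔDMR1-U2 muscle and 36.3 ± 4.55 CPM in wild-type. A wider fibroblast marker list, which includes the member Pdgfra, had 14 tested genes. Of these 0 were called by edgeR or DESeq2, and 3, Pdgfra among them, had an unadjusted p under 0.05. The median log2 fold change was -0.00, with 7 positive and 7 negative.

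Levels per kilobase, over the joined length of all annotated exons of a gene, spanned a wide range. Sparc was highest in wild-type, at 426 ± 62.1 CPM per kilobase, followed by Postn at 381 ± 27.8, and these neighbours differed by less than their spread. Vim followed at 208 ± 10.9, then Fn1 at 133 ± 18.7, Ogn at 126 ± 10.5 and Fbn1 at 113 ± 12.5. Fn1 and Ogn also differed by less than their spread, and Ogn and Fbn1 by slightly more than either SD. At the other end, Efemp2 was at 9.38 ± 0.136, Efemp1 at 8.93 ± 1.71 and Timp1 at 8.41 ± 2.48 CPM per kilobase. By the length of the longest transcript instead, 8 of the 10 highest were shared and the first 5 kept their order, but Bgn moved from place 16 to place 6 (123 CPM per kilobase in wild-type) and Fbln5 (13.2) came below Efemp2 (13.5). In ΔDMR1-U2 muscle Sparc was at 363 ± 43.0, Postn at 386 ± 50.6 and Vim at 247 ± 22.3 CPM per kilobase. Efemp1 was at 15.3, 29.3, 16.3 and 18.6 CPM in ΔDMR1-U2 muscle and at 15.5, 15.3, 19.4 and 22.6 CPM in wild-type libraries 1A, 1B, 2 and 3, with ΔDMR1-U2 library 1B above all others. Together the 36 took 1.47% to 1.80% of all counts, and their median level was 232 CPM against 17.0 CPM over all genes tested.

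**Figure D3:**
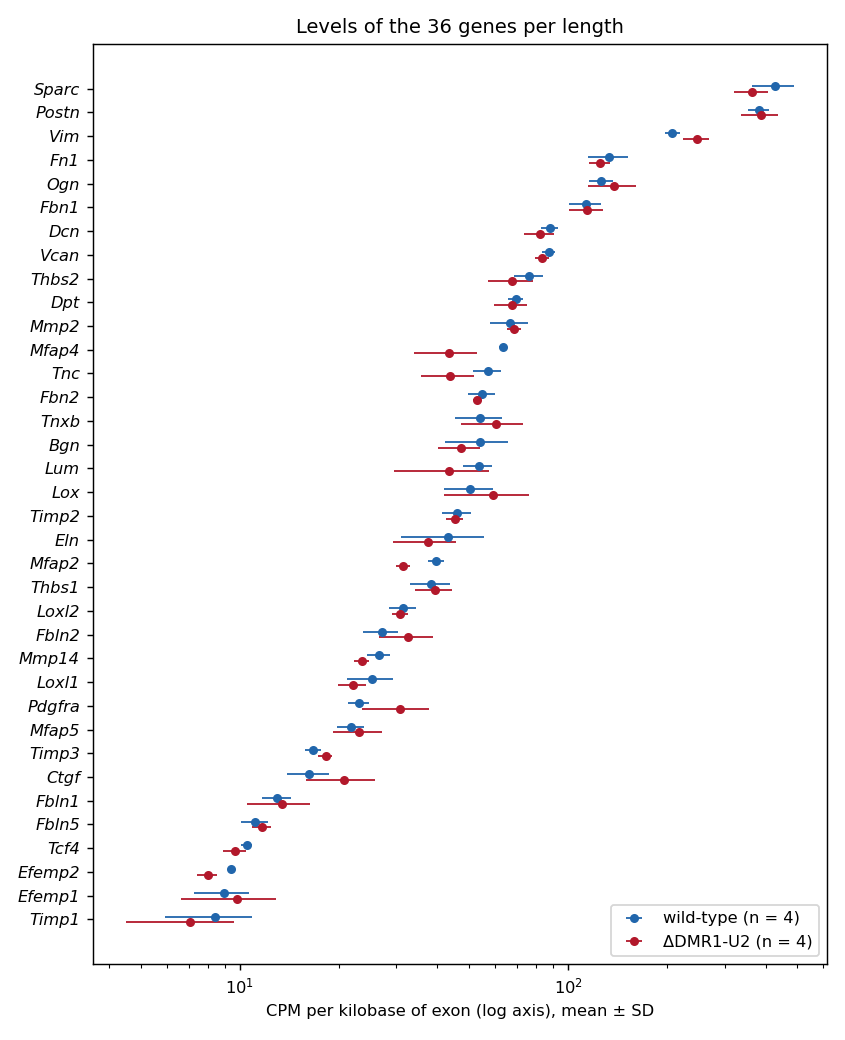
Level of each of the 36 genes in CPM per kilobase of exon, on a log axis, as mean and SD over 4 libraries in each genotype. Sparc and Postn are at the top, at 426 and 381 in wild-type, and Efemp2, Efemp1 and Timp1 at the bottom, all under 10.

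Some libraries were high or low over many members at once. Wild-type library 3 was the highest of its group for 27 of the 36 and wild-type library 1A the lowest for 20. In the ΔDMR1-U2 group, library 3 was the lowest for 17. A set of 14 genes was lowest in both ΔDMR1-U2 library 3 and wild-type library 1A, namely Dcn, Lum, Ogn, Bgn, Postn, Sparc, Thbs1, Thbs2, Ctgf, Lox, Timp1, Timp2, Timp3 and Mmp14. These include all 5 matricellular members, 4 of 5 proteoglycans and partners, 4 of 5 proteases and inhibitors, and 0 of the 11 microfibril and elastic fibre members. Over all genes tested, the deviations of these 2 libraries from their group means had a correlation of 0.36, the highest of any pair across genotypes. Counts of highest and lowest libraries were not made over all genes tested. The same 2 libraries had the low cartilage and bone marker sums given above. In ΔDMR1-U2 those sums ran from 59.1 to 765 CPM and in wild-type from 71.6 to 1399 CPM, with none of the 11 markers at 0 in every library, and their part in these values was not tested. The median over the 36 of each library's log2 level relative to the wild-type mean was -0.13 for ΔDMR1-U2 library 3 and -0.12 for wild-type library 1A, against 0.15 in wild-type library 3. Without the first 2 libraries, 0 members were called, as were only 2 of all genes tested.

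**Figure D4:**
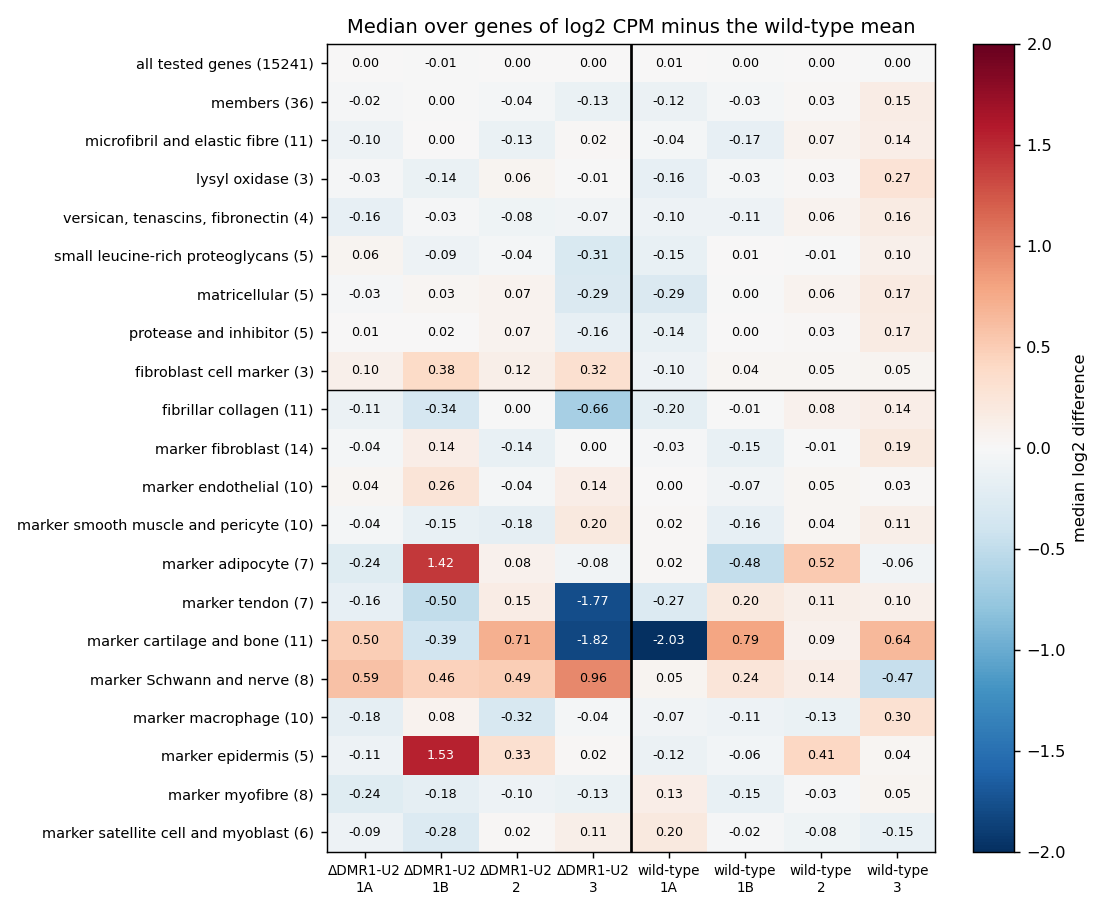
Median over genes of the log2 CPM difference from the wild-type mean, for each gene group (vertical axis, number of genes in brackets) in each of the 8 libraries (horizontal axis), with colour and printed value giving the median. Cartilage and bone markers stand at -1.82 for ΔDMR1-U2 library 3 and -2.03 for wild-type library 1A, where matricellular members stand at -0.29 in both, while the microfibril group stands at 0.02 and -0.04.

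Further genes of the same pathways came from lists of their own. Of 16 other elastic fibre genes, 1 fell, Emilin1, which encodes a glycoprotein at the face between elastin and microfibrils. It was at 73.6 ± 8.86 CPM in ΔDMR1-U2 muscle and 107 ± 6.05 CPM in wild-type, with no overlap (log2 fold change -0.54, edgeR adjusted p = 0.0301). The call was kept without ΔDMR1-U2 library 1A, 1B or 2 and lost in the other 5 fits that left out 1 library, between -0.61 and -0.47. In that list 2 genes had an unadjusted p under 0.05, both lower, and DESeq2 called 1, lower. Of 11 other small leucine-rich proteoglycans 0 were called by edgeR or DESeq2 (1 at an unadjusted p under 0.05), and the most abundant, Aspn and Fmod, had log2 fold changes of 0.32 and -0.58. Of 22 other matricellular genes and glycoproteins 1 fell, Igfbp7, at 62.5 ± 8.09 CPM in wild-type and 44.5 ± 2.44 CPM in ΔDMR1-U2 muscle (edgeR adjusted p = 0.0392). Of the 8 fits that left out 1 library, those without ΔDMR1-U2 libraries 1B and 2 kept that call and 6 lost it, and Igfbp7 overlaps Polr2b on the opposite strand. In that list 3 genes had an unadjusted p under 0.05, all lower, and DESeq2 called 1, lower. Of 25 other proteases, inhibitors and processing factors 0 were called by edgeR and 4 by DESeq2, and 9 had an unadjusted p under 0.05. The most abundant, Serpinh1, the collagen chaperone, and Pcolce, which speeds procollagen cutting, had log2 fold changes of -0.38 and -0.36 (edgeR adjusted p = 0.0914 and 0.0594). Exons of Pcolce overlap Fbxo24 on its own strand, and those of Aspn overlap Cenpp on the opposite one. The sources used here do not say how reads in such overlaps were counted. All 11 fibrillar collagen genes had negative values, with a median of -0.30, 0 called by edgeR or DESeq2 and 2 at an unadjusted p under 0.05. Col3a1 had -0.02 and Col1a2 -0.30.

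Signalling and receptor genes also came from lists of their own. Of 24 TGF-β pathway genes 0 were called by edgeR and 3 by DESeq2, 8 had an unadjusted p under 0.05, and the abundant Ski and Tgfbr2 had log2 fold changes of 0.12 and 0.13. Of 20 YAP and TEAD pathway genes 1 rose, Tead3, at 20.3 ± 0.739 CPM in wild-type and 26.5 ± 2.22 CPM in ΔDMR1-U2 muscle (edgeR adjusted p = 0.0475), a call kept only without ΔDMR1-U2 library 1A or 2 of the 8 left out in turn. Of 24 matrix receptor genes 1 rose, Cd36, a thrombospondin receptor that also takes up fatty acids, at 409 ± 21.8 CPM in wild-type and 711 ± 85.6 CPM in ΔDMR1-U2 muscle (log2 fold change 0.80, edgeR adjusted p = 0.00752). This call was kept when any 1 library was left out. Of the YAP and TEAD genes 3 had an unadjusted p under 0.05 (15.0%, 2 higher and 1 lower), and DESeq2 called 1, higher. Of the matrix receptor genes 9 had one (37.5%, 5 higher and 4 lower), and DESeq2 called 2, both higher. Medians of the TGF-β, YAP and TEAD, and matrix receptor lists were 0.07, 0.00 and 0.01. For each list the background among all genes tested is 1.13% called by edgeR and 21.3% with an unadjusted p under 0.05. For DESeq2 it is 6.15% of the genes it tested.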

How the data were processed

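Per the labels' protocols, ribosomal RNA was removed from total RNA of 8 samples before paired-end sequencing. Per the submitters' processing notes, mm10 was the build, with HTSeq 0.5.4p3, DESeq2 1.4.5, TopHat2 2.0.9, Bowtie2 2.1.0 and FastQC 0.10.1 among the tools. The sources used here give no settings, gene annotation or strand option. The authors deposited 1 table, with a raw read count per gene and sample, per the file headers. The table also holds the authors' mean normalised counts, a signal per group, their fold change as a ratio of wild-type over ΔDMR1-U2, its log2, and a p-value with its adjusted form. Their sign was turned to ΔDMR1-U2 over wild-type. 0 count columns were without a sample.

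The members and the other gene lists were chosen with earlier results of these data known. Counts were tested in edgeR 4.0.16 under R 4.3.3, without covariates, after filterByExpr at a minimum count of 10 (15241 of 23336 genes, with 3149 at 0 everywhere) and scaling by the trimmed mean of M values. The biological coefficient of variation was 12.3%. CPM uses the scaled library size, and log2 CPM a prior count of 2. The fit was also run on counts simulated from the fitted means and dispersion, without outlying libraries. That run cannot show how the fit behaves with libraries that stand apart. Exon lengths are from GENCODE vM21, which holds the same assembly, and all 36 genes were matched, 1 through another symbol. Values in every library are given for called members, the 10 with the smallest p, and the 3 with the highest and the 3 with the lowest level per kilobase. Values in every library for Lum and Bgn were added after they were seen. From each other list come called genes (at most 4), otherwise the 2 most abundant. Alternatives were other size factors, scaling by total count (for the members' median only), no or a stricter filter, a replicate block, DESeq2 1.42.0, and leaving out libraries.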

Additional observations from a re-analysis of the deposited data

Results flagged for a closer look

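In 3 of 72 groups of 4 libraries, one per gene and genotype, 1 library lay far from its neighbours for the range of its group (Dixon's 95% criterion). Chance alone gives about 1 in 20 groups. Bgn was at 224 CPM in ΔDMR1-U2 library 3, where the next library was at 301 CPM. Mfap2 was at 40.8 CPM in ΔDMR1-U2 library 2, the highest of its group, where the next was at 37.3 CPM. Without that library the call of Mfap2 held, at a log2 fold change of -0.37 (edgeR adjusted p = 0.0303). Mfap5 was at 89.0 CPM in wild-type library 3, where the next was at 76.0 CPM.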

How the results depend on the processing

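Over all genes, 172 were called, against 13 with the replicate number as a block, 930 in DESeq2, 7 to 631 when 1 library was left out, 16 without ΔDMR1-U2 libraries 1A and 1B, and 2 without ΔDMR1-U2 library 3 and wild-type library 1A, a setting chosen after seeing the data. Of the members, 1 was called lower, against 2 without a filter (with Mfap4, adjusted p = 0.0464), 0 with the block, 3 in DESeq2 (with Mfap4 and Tnc), 0 to 3 when 1 library was left out, and 0 without either pair of libraries, and 0 were called higher in any of these. The 3 came without ΔDMR1-U2 library 2. With the block, the adjusted p was 0.116 for Mfap2, 0.121 for Mfap4, 0.0632 for Emilin1, 0.112 for Igfbp7, 0.131 for Tead3 and 0.0505 for Cd36. The same-numbered libraries did not vary together (correlations of their deviations -0.22, -0.18, -0.08 and -0.08), so the numbers are not treated as pairs. Direction held in all 15 alternatives for 24 members, and the other 12 had a log2 fold change of at most 0.23 in size. Scaling by total count alone was not among the 15. It gave a median log2 fold change over the members of 0.015, against -0.04 in the main fit. Without wild-type library 3 that median was 0.0098. Without ΔDMR1-U2 libraries 1A and 1B, the log2 fold change turned to -0.051 for Fbn1, -0.0091 for Ogn, -0.10 for Postn, -0.027 for Lox, 0.017 for Loxl2, -0.046 for Mfap5 and -0.060 for Efemp1, and without ΔDMR1-U2 library 3 and wild-type library 1A to -0.033 for Fbn1. Leaving out 1 library gave -0.050 to 0.085 for Fbn1, -0.025 to 0.11 for Postn, -0.057 to 0.094 for Thbs1, -0.085 to 0.023 for Loxl2, -0.075 to 0.040 for Dpt, -0.042 to 0.15 for Mfap5, -0.12 to 0.25 for Efemp1, -0.10 to 0.14 for Fbln1, -0.091 to 0.029 for Timp2 and -0.0041 to 0.14 for Mmp2. The causes were not tested. With 4 libraries a group, the median standard error over the members was 0.11 log2. Differences of that size or smaller could not be resolved. That value is not a limit of detection, since members with larger ones, such as Pdgfra at 0.41, were not called either.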
